A study of Mus musculus with 24 samples.

Results

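The BCL2 family decides whether a cell under stress keeps its mitochondria intact or dies by apoptosis, and its transcripts were followed here from preleukemic to leukemic bone marrow B cells of irradiated mice. The set was fixed by name as 10 genes: the survival genes Bcl2, Bcl2l1 (which encodes Bcl-xL) and Mcl1, the pore-forming effectors Bax and Bak1, and the BH3-only genes Bcl2l11 (Bim), Bbc3 (Puma), Pmaip1 (Noxa), Bid and Bad. Each gene was read from the probe set that the platform annotation names for it, and from the highest-mean probe set where there were several. Of the 10 genes, 9 had a probe set, 1 each, and all 9 were among the 15647 genes tested of 19938 named on the array. No probe set carries the symbol Bax in the annotation used, so Bax was not analysed here.

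The series holds 24 Affymetrix mouse arrays, 1 per mouse, on total RNA, and its values are log2 signals. All mice, of either genotype, had received 2 Gy of irradiation. The groups were preleukemic wild type (WT-IR, n = 3), leukemic wild type (WT-IR, n = 4), preleukemic Pax5+/- (Pax5+/- IR, n = 7) and leukemic Pax5+/- (Pax5+/- IR, n = 10), where Pax5+/- mice have 1 functional copy of the gene for the B-cell transcription factor Pax5. The design describes the leukemic material as tumour-bearing marrow and the preleukemic material as pro/pre-B cells of the marrow taken 3 weeks after irradiation, so stage goes together with the way cells were obtained. The labels give all samples that same interval, and the sources used here name no ages. The study's question for these genes is the stage comparison, leukemic against preleukemic within a genotype, and the genotype comparison within a stage. A fold below is 2 to the power of a difference in log2 signal, and a gene was called when its limma p, adjusted by Benjamini-Hochberg over all genes tested, was under 0.05.

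Apoptosis through the mitochondria is set by 3 kinds of BCL2 family protein. BAX and BAK1 open the outer mitochondrial membrane, which releases cytochrome c and starts the caspases. BCL2, BCL-xL and MCL1 hold the effectors and their activators in check, and BH3-only proteins carry death signals to both. Developing B cells depend on this balance: the pre-B stage is known for relying on BCL-xL and MCL1, while p53 induces Puma and Noxa after irradiation.

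Some facts of the arrays bear on every stage result below. Over all genes tested, 27.8% were called higher and 35.1% lower in leukemic Pax5+/- samples, and 18.7% and 20.4% in wild type. Of 13 tested B-lineage genes, 9 were called lower in leukemic samples of each genotype (means 11.35 to 9.32 in wild type and 11.19 to 9.71 in Pax5+/-). Cd79a was among them (-1.50 in Pax5+/- and -1.64 in wild type) and read 10.46 or more on every array. Rag2, called lower too, lay at or below the dim level on 1 leukemic array of each genotype. All 9 platelet and megakaryocyte genes were higher in both genotypes, with the mean over the list at 6.79 to 6.97 on preleukemic and 7.81 to 10.71 on leukemic arrays, and none of the 9 lay at the dim level. Of 15 mitotic genes, 15 were higher in Pax5+/- and 14 in wild type. Granulocyte genes were higher in leukemic Pax5+/- samples (11 of 17) and none of 17 was called in wild type, where preleukemic array 1 had a granulocyte mean of 10.47 beside 6.50 and 6.55 and a mitotic mean of 10.06 beside 8.11 and 8.29. Without that array and leukemic Pax5+/- array 2, 13 of 17 granulocyte genes were called higher in wild type and 14 of 17 in Pax5+/-, and in wild type the monocyte genes called higher went from 4 to 8 of 11 and the erythroid genes from 3 to 7 of 8. Of the other lists, stromal and vessel genes were 8 higher and 1 lower of 10 in each genotype, erythroid genes 1 higher and 1 lower of 8 in Pax5+/- and 3 higher in wild type, and T and NK cell genes 2 higher of 13 in Pax5+/- and 1 in wild type. Pax5 itself fell from 11.43 to 8.53 in Pax5+/- mice and from 11.88 to 9.45 in wild type, and leukemic Pax5+/- array 2 kept it at 11.37. Between genotypes Pax5 was not called at either stage (Pax5+/- minus wild type -0.45, 95% CI -2.02 to 1.12, before and -0.92, 95% CI -2.26 to 0.43, in leukemia). These intervals rest on 1 spread shared by the 4 groups. Pax5 varied more in leukemia (SD 2.1 in wild type, 1.22 in Pax5+/-) than before it (0.36 and 0.09). Preleukemic Pax5 ran from 11.47 to 12.16 in wild type and from 11.34 to 11.59 in Pax5+/-. In wild type, the 3 preleukemic mice had high and the 4 leukemic mice low Y-linked signal. There a stage difference cannot be told apart from one of sex, which the labels do not name. In Pax5+/- the signal was high in 4 of 7 preleukemic and 5 of 10 leukemic mice. The interaction and the genotype comparisons below were therefore unbalanced by this signal, and so perhaps by sex, as well. In bulk RNA of this kind, fewer cells of a type and less RNA per cell cannot be told apart.

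The stretches of genome in front of the 4 members with the largest stage differences are shown first, since these genes moved in opposite directions. Each is the 250 bases before the start of transcription in the RefSeq table of GRCm38.p6, read 5′ to 3′ on the gene's own strand, with GC boxes (GGGCGG or its reverse complement) in capitals.
Bcl2, chr1:106714291-106714540, minus strand: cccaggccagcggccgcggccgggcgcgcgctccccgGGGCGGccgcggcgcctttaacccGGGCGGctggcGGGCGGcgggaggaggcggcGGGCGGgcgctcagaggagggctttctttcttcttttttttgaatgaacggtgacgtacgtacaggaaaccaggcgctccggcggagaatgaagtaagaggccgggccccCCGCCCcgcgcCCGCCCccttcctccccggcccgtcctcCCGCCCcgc
Bcl2l1, start site 3, chr2:152831729-152831978, minus strand: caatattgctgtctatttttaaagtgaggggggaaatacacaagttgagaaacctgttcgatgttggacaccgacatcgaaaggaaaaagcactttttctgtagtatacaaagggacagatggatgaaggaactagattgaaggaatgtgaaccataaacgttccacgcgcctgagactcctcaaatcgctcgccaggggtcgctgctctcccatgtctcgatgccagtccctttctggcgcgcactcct
Mcl1, chr3:95658471-95658720, plus strand: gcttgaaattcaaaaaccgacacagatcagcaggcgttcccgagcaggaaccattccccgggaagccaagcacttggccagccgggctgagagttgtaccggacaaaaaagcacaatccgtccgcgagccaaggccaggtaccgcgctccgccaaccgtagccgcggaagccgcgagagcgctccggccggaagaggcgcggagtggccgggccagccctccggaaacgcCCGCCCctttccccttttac
Bid, chr6:120916825-120917074, minus strand: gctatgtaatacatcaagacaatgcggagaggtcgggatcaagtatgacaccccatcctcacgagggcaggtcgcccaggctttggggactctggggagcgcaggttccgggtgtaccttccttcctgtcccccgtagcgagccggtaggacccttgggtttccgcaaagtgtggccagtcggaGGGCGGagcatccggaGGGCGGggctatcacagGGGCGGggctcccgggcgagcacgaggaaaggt
The Bcl2 stretch is 74.8% G or C with 36 CpG dinucleotides and 7 GC boxes. The Mcl1 stretch is 64.4% G or C with 26 CpG and 1 GC box, and the Bid stretch is 63.6% with 18 CpG and 3 GC boxes. Bcl2l1 has 3 start sites in the table, and the one farthest upstream is 47.6% G or C with 12 CpG. Over all 32851 windows of this length the medians were 52.4% and 6 CpG, and 32.7% of windows held a GC box.

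Searches for 7 further motifs on both strands gave few matches among the 15 windows of 9 members (Bax included, Pmaip1 not used here). The motifs were the MYC E-box CACGTG (in 6.02% of all windows), the palindromic EBF1 site (0.779%), a PAX5 core GCGTGAC (1.78%), the STAT5 site TTCNNNGAA (7.02%), the FOXO site GTAAACA (3.17%), the AP-1 site TGANTCA (6.75%) and the CRE TGACGTCA (1.55%). GC boxes that overlap were each counted. A PAX5 core lay 54 to 48 bases before start 1 of Bbc3, FOXO sites lay in front of start 1 of Bcl2l11 and start 2 of Bbc3, and MYC E-boxes lay 9 to 4 bases before the start of Bax and 64 to 59 bases before start 3 of Bbc3. Bcl2 and Bid matched the GC box alone, Mcl1 likewise, and none of the 3 Bcl2l1 windows held any of the 8 motifs. A match is a description of letters, and these data hold no binding measurement.

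Survival genes came apart between the stages. Bcl2 was higher in leukemia while Bcl2l1 and Mcl1 were lower, in Pax5+/- mice by 6.28-fold, 4.78-fold and 1.94-fold. In wild type the falls of Bcl2l1 (3.35-fold) and Mcl1 (1.98-fold) were called, and the Bcl2 difference of 2.25-fold was not.

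**Figure D1:**
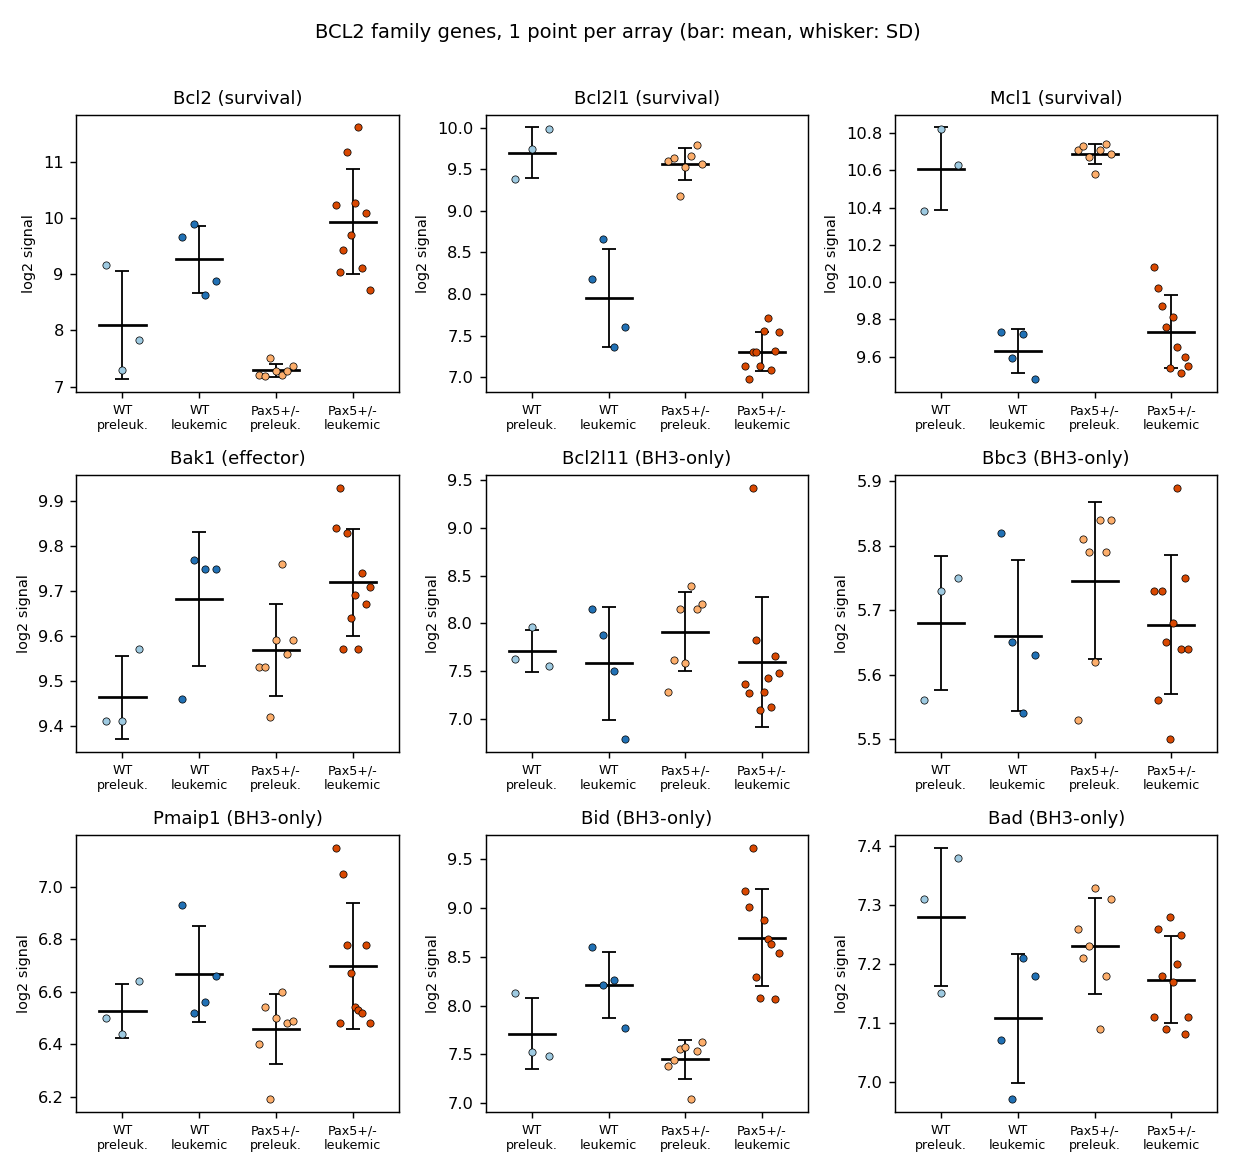
Log2 signal (vertical axis) of the 9 measured BCL2 family genes on every array in the 4 groups (horizontal axis), with 1 point per array, a bar for the mean and a whisker for the SD. Bcl2 sits at 7.18 to 7.51 in preleukemic and 8.73 to 11.62 in leukemic Pax5+/- mice, Bcl2l1 and Mcl1 sit lower in leukemia in both genotypes, and Bbc3 spans 5.50 to 5.89 over all groups. Each panel has its own vertical scale, which does not start at 0.

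Bcl2, the founding survival gene of the family, read 7.18 at the lowest, 7.27 at the median and 7.51 at the highest of the 7 preleukemic Pax5+/- arrays. The 10 leukemic Pax5+/- arrays read 8.73, 9.89 and 11.62 in the same order. The groups did not overlap, and every leukemia lay above every preleukemic mouse of the genotype. The difference was 2.65 ± 0.35 (SE; 95% CI 1.93 to 3.37), with a limma adjusted p of 1.11e-06. Leukemias varied among themselves far more than preleukemic mice did (SD 0.94 against 0.12), with arrays 7 (11.62) and 4 (11.19) at the top and array 10 (8.73) at the bottom. Array 2, which kept its Pax5 signal, was among the lower ones at 9.04.

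In wild type the Bcl2 values were 9.17, 7.30 and 7.83 on preleukemic arrays 1 to 3 and 9.66, 9.89, 8.64 and 8.89 on leukemic arrays 1 to 4. The groups overlapped through preleukemic array 1, which also carried the granulocyte and mitotic signal given above. The difference was 1.17 ± 0.54 (SE; limma adjusted p = 0.0878) and was not called. Without that array it was 1.70 with a limma adjusted p of 0.0201, and without preleukemic array 2 it was 0.77. Whether other cells on array 1 contributed to its Bcl2 signal was not tested.

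Bcl2l1, which encodes the Bcl-xL protein that sustains pre-B cells and also erythroid cells and platelets, ran the other way. Preleukemic Pax5+/- arrays read 9.18, 9.60 and 9.79 (lowest, median, highest) and leukemic ones 6.98, 7.30 and 7.71. Again the groups did not overlap. The difference was -2.26 ± 0.15 (SE; 95% CI -2.56 to -1.95; limma adjusted p = 3.21e-11). Preleukemic wild-type arrays 1 to 3 read 9.38, 9.74 and 9.98, and leukemic arrays 1 to 4 read 8.18, 8.66, 7.36 and 7.61. Every wild-type leukemia lay below every preleukemic wild-type mouse, by -1.75 ± 0.23 on average (SE; limma adjusted p = 4.47e-06). The fall was called without any 1 of the 24 arrays in either genotype, at -2.32 to -2.22 in Pax5+/- and -1.98 to -1.55 in wild type.

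Mcl1 encodes a short-lived survival protein needed through B-cell development, and its transcript gave the tightest readings of the survival genes. Preleukemic Pax5+/- arrays read 10.58, 10.71 and 10.74, and leukemic ones 9.51, 9.71 and 10.08. Preleukemic wild-type arrays read 10.38, 10.82 and 10.63, and leukemic ones 9.73, 9.59, 9.72 and 9.48. No leukemic array of either genotype reached the lowest preleukemic one. The differences were -0.96 ± 0.08 in Pax5+/- (SE; limma adjusted p = 9.08e-10) and -0.98 ± 0.12 in wild type (SE; limma adjusted p = 2.11e-06).

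**Figure D2:**
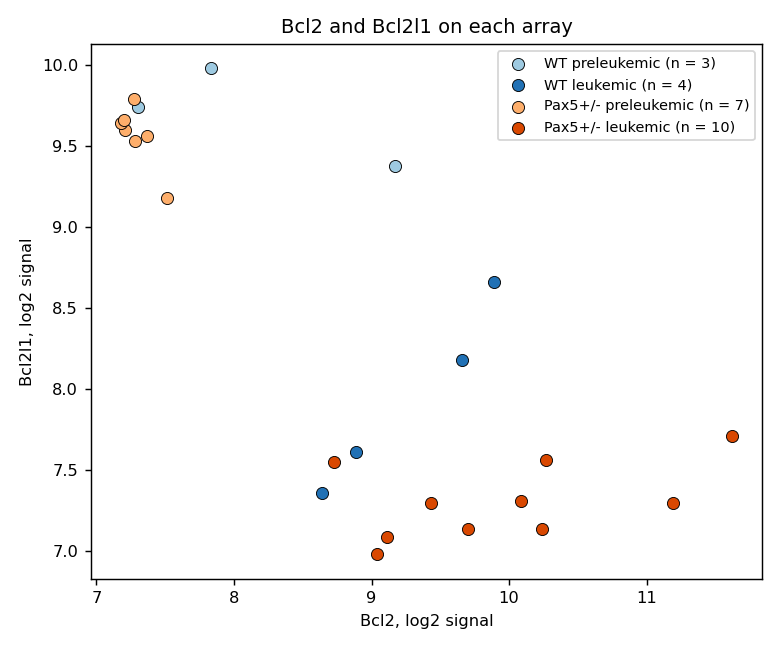
Log2 signal of Bcl2 (horizontal axis) against that of Bcl2l1 (vertical axis), with 1 point per array coloured by group. Preleukemic arrays gather at low Bcl2 and high Bcl2l1, leukemic arrays at high Bcl2 and low Bcl2l1, and preleukemic wild-type array 1 lies between them with 9.17 and 9.38.

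The plot of Bcl2 against Bcl2l1 sets both genes side by side on each array. Taking Bcl2 minus Bcl2l1 on the log2 scale, with the mean of preleukemic Pax5+/- mice set to 0, the preleukemic Pax5+/- arrays ran from -0.24 to 0.61. Leukemic Pax5+/- arrays ran from 3.45 to 6.19 with a median of 4.91. Leukemic wild-type arrays kept within 3.50 to 3.75, a narrower span than either gene alone, and arrays 1 and 2 were the higher ones for both genes. Preleukemic wild-type arrays read 2.07, -0.17 and 0.13, the first being array 1. No preleukemic array reached the lowest leukemic value, a description for which no test was made.

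The effector that was measured moved little. Bak1, the effector that resides on the mitochondrial outer membrane, read 9.42, 9.56 and 9.76 in preleukemic and 9.57, 9.70 and 9.93 in leukemic Pax5+/- mice (lowest, median, highest). These ranges overlapped over most of their width. The rise of 0.15 ± 0.06 (SE), or 1.11-fold, was called at a limma adjusted p of 0.0272. It depended on the scaling of the arrays: centred on the genes tested, the value was -0.04 with an adjusted p of 0.555 by the same limma fit, and without preleukemic Pax5+/- array 3 it was 0.13 at 0.0666. In wild type, preleukemic arrays read 9.41, 9.41 and 9.57 and leukemic arrays 9.46, 9.77, 9.75 and 9.75, a difference of 0.22 that was not called (limma adjusted p = 0.0644) and was called without leukemic array 1 (0.29, limma adjusted p = 0.014).

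Among the BH3-only genes, Bid stood apart. Its protein is cut by caspase-8 and so links death receptors to mitochondria. Bid read 7.04, 7.53 and 7.63 in preleukemic and 8.07, 8.65 and 9.62 in leukemic Pax5+/- mice, with no overlap. The rise was 1.25 ± 0.18 (SE; 95% CI 0.87 to 1.63), or 2.37-fold, with a limma adjusted p of 5.39e-06. In wild type, preleukemic arrays read 8.13, 7.52 and 7.48 and leukemic arrays 8.60, 8.21, 8.26 and 7.77. Preleukemic array 1 was above leukemic array 4, and the difference of 0.50 (95% CI -0.09 to 1.09; limma adjusted p = 0.167) was not called.

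Pmaip1 encodes Noxa, a p53-induced partner that counters MCL1. It read 6.19, 6.49 and 6.60 in preleukemic and 6.48, 6.61 and 7.15 in leukemic Pax5+/- mice, overlapping groups that differed by 0.24 ± 0.09 (SE; 1.18-fold; limma adjusted p = 0.0286). The call was lost without preleukemic array 3 (0.20, adjusted p = 0.0747), without leukemic array 3 (0.20, adjusted p = 0.0525), and with arrays centred on the genes tested (0.04, adjusted p = 0.691), all by limma. Wild-type arrays read 6.50, 6.44 and 6.64 before and 6.93, 6.52, 6.56 and 6.66 in leukemia, and the difference of 0.14 was not called (limma adjusted p = 0.452).

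Bcl2l11 encodes Bim, which removes B cells that lack growth factor signals, and it varied most from mouse to mouse among the death genes. Preleukemic Pax5+/- arrays read 7.28, 8.15 and 8.39 and leukemic ones 7.09, 7.40 and 9.42. A single leukemia, array 3, held the 9.42, and the group means differed by -0.32 (95% CI -0.86 to 0.23; limma adjusted p = 0.299). Without array 3 the difference was -0.52 and was called (limma adjusted p = 0.0155). In wild type, preleukemic arrays read 7.63, 7.96 and 7.55 and leukemic arrays ran from 6.79 on array 4 to 8.15 on array 1, with a difference of -0.13 (95% CI -0.98 to 0.71; limma adjusted p = 0.813).

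Bbc3 and Bad showed no called stage difference in either genotype. Bbc3 encodes Puma, a principal p53 target in irradiated lymphocytes, and its 24 values lay between 5.50 and 5.89, only just above the dim level of 5.18 to 5.35 (the 30th percentile of an array). Its stage differences were -0.07 (95% CI -0.19 to 0.05) in Pax5+/- and -0.03 (95% CI -0.21 to 0.16) in wild type, and a log2 signal this near background can compress a change. Bad, whose protein is silenced by phosphorylation downstream of growth factors, lay between 6.97 and 7.38 on all arrays. Its differences were -0.06 (95% CI -0.16 to 0.04; limma adjusted p = 0.268) in Pax5+/- and -0.17 (95% CI -0.32 to -0.02; limma adjusted p = 0.063) in wild type. The wild-type value was called without leukemic array 3 (-0.21, limma adjusted p = 0.0409) or preleukemic array 2 (-0.24, limma adjusted p = 0.0277). With arrays centred on the genes tested, Bbc3 and Bad were called lower in Pax5+/- (-0.27 and -0.26) and Bad in wild type (-0.29).

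**Figure D3:**
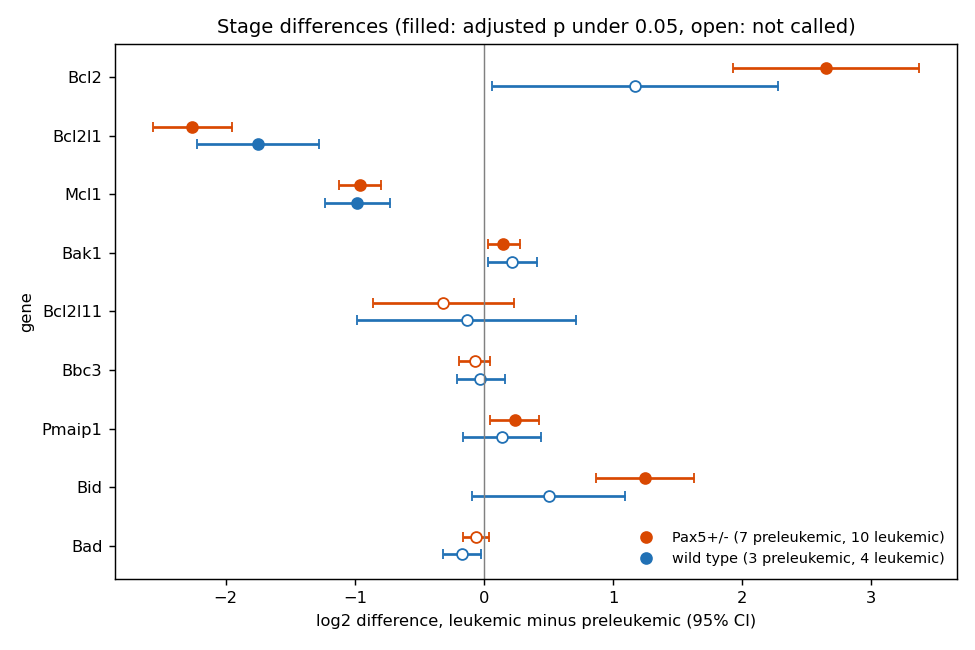
Log2 difference, leukemic minus preleukemic, with its 95% CI (horizontal axis), for the 9 measured BCL2 family genes (vertical axis) in Pax5+/- and wild type, filled where the adjusted p was under 0.05 and open where the gene was not called. Bcl2 and Bid lie to the right, Bcl2l1 and Mcl1 to the left, and the wild-type intervals are wider.

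As a set, the family was called in Pax5+/- mice about as often as other genes. There 6 of 9 were called, 4 higher (Bcl2, Bid, Bak1, Pmaip1) and 2 lower (Bcl2l1, Mcl1), beside 62.9% of all genes tested (27.8% higher and 35.1% lower). Groups did not overlap for 4 of the 9, beside 22.2% of all genes. At 2-fold or more 3 of the 9 were called, beside 9.72% of all genes. In wild type 2 of 9 were called, both lower, beside 39.1% of all genes (18.7% higher and 20.4% lower), with 2 of 9 not overlapping beside 39.3%, and 1 of 9 at 2-fold or more, Bcl2l1, beside 9.22%. The median difference of the 9 was -0.06 in Pax5+/- and -0.03 in wild type, and that of all genes was -0.05 in each. With so large a share of the array changing, a call by itself says little about a family member, and the counts moved with scaling: centred on the genes tested, which moved the median of all genes by -0.20 in Pax5+/- and -0.12 in wild type, 2 members were higher and 4 lower in Pax5+/- and 0 higher and 3 lower in wild type. Without preleukemic wild-type array 1 and leukemic Pax5+/- array 2, 3 were higher and 2 lower in Pax5+/- (Bak1 was lost) and 1 higher (Bcl2) and 2 lower in wild type. Bcl2, Bcl2l1, Mcl1 and Bid kept their direction and call in Pax5+/- under that scaling (2.45, -2.45, -1.15 and 1.05).

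Whether the stage differences themselves differed between genotypes was tested as an interaction. None of the 9 was called, beside 0.185% of all genes. For Bcl2 the Pax5+/- rise exceeded the wild-type one by 1.48 ± 0.64 (SE; 95% CI 0.16 to 2.81; limma adjusted p = 0.522), and by 0.95 without preleukemic wild-type array 1. For Bid the excess was 0.75 ± 0.34 (SE; limma adjusted p = 0.546). For Bcl2l1 the interaction was -0.51 (95% CI -1.07 to 0.05; limma adjusted p = 0.645) and for Mcl1 0.03 (95% CI -0.27 to 0.32; limma adjusted p = 0.983). The Bcl2 rise was therefore called in Pax5+/- and not in wild type without a called difference between them.

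Genotype comparisons within a stage called no member. Before leukemia 0 of 9 were called, beside 0.786% of all genes. For Bcl2 the difference, Pax5+/- minus wild type, was -0.81 (95% CI -1.81 to 0.19; limma adjusted p = 0.68). Without preleukemic wild-type array 1 it was -0.28 (limma adjusted p = 0.959), and over all arrays left out in turn it ran from -1.21 to -0.28. The intervals were narrow for Mcl1 (0.08, 95% CI -0.15 to 0.30), Bad (-0.05, 95% CI -0.18 to 0.09) and Bbc3 (0.06, 95% CI -0.10 to 0.23).

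In leukemia 0 of 9 were called as well, beside 0.16% of all genes. Bcl2l1 was lower in Pax5+/- leukemias by -0.65 ± 0.18 (SE; 95% CI -1.01 to -0.28; limma adjusted p = 0.162), and the value rested on single wild-type leukemias. Without leukemic wild-type array 2 it was -0.41 (limma adjusted p = 0.807), and without leukemic wild-type array 3 it was -0.84 and called (limma adjusted p = 0.0157). The erythroid genes moved with it across the 4 wild-type leukemias. Arrays 1 to 4 read 8.18, 8.66, 7.36 and 7.61 for Bcl2l1 and 8.97, 8.80, 6.10 and 6.96 for the mean of 8 erythroid genes, against 5.79 to 6.23 on the leukemic Pax5+/- arrays. Of these 8 genes only Rhag was at or below the dim level on any of the latter. It was so on all 10 of them, and on all 7 preleukemic Pax5+/- arrays as well. Array 2 also had the highest T and NK cell mean of its group, 8.27 beside 6.20 to 6.27, and the lowest Pax5, 6.34. The part of these cells in the Bcl2l1 difference was not tested. Bid was higher in Pax5+/- leukemias by 0.49 (95% CI 0.03 to 0.94; limma adjusted p = 0.602) and Bcl2 by 0.67 (95% CI -0.19 to 1.53; limma adjusted p = 0.779).

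The 10 leukemic Pax5+/- arrays allowed members to be set against marker levels within 1 group, in 45 relations (9 members and 5 levels). Bcl2l1 tracked the platelet genes: arrays 7 and 6 had the highest platelet means (10.71 and 10.47) and array 7 the highest Bcl2l1 (7.71), while arrays 8 and 2 had the lowest platelet means (7.81 and 8.42) and array 2 the lowest Bcl2l1 (6.98). Pearson's r was 0.878 (permutation p = 0.00061, adjusted 0.0274, n = 10) and Spearman's rho 0.964 (permutation p = 4e-05, adjusted 0.0018). Without the 2 arrays farthest from the median platelet level r was 0.868. The erythroid mean also went with Bcl2l1 on these arrays, with r 0.662 (permutation p = 0.0399, adjusted 0.324). Its rho was 0.77 (permutation p = 0.0126, adjusted 0.189), and neither passed after adjustment. Across stages Bcl2l1 was lower in the leukemias while the platelet genes were higher, and within these leukemias it was higher on arrays with more platelet signal. The part of platelet or megakaryocyte RNA in the remaining Bcl2l1 signal was not tested.

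**Figure D4:**
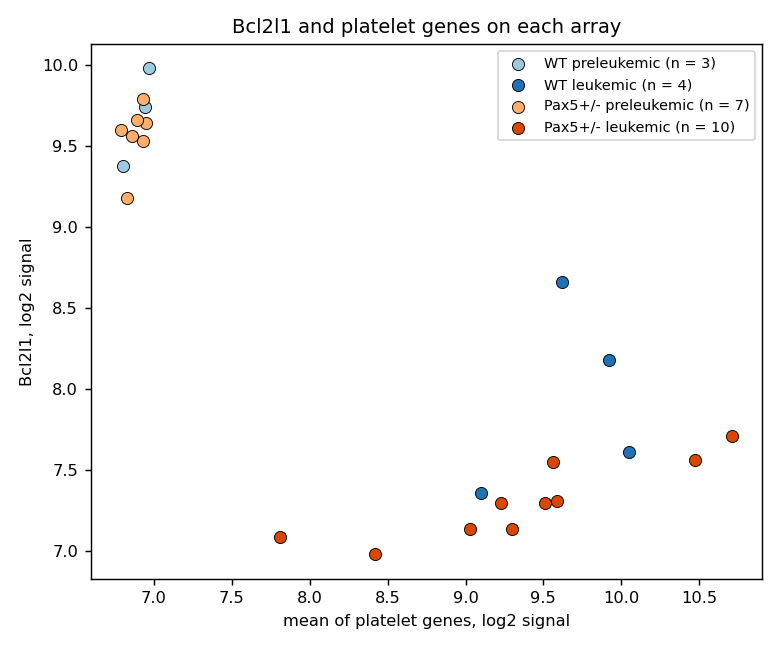
Mean log2 signal of 9 platelet and megakaryocyte genes (horizontal axis) against the log2 signal of Bcl2l1 (vertical axis), with 1 point per array coloured by group. Preleukemic arrays sit at platelet means of 6.79 to 6.97 and high Bcl2l1, and among leukemic Pax5+/- arrays Bcl2l1, at 6.98 to 7.71, is higher where the platelet mean is higher.

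Bcl2 ran against the mitotic genes in the same 10 leukemias. Spearman's rho was -0.879 (permutation p = 0.00152, adjusted 0.0342, n = 10), while Pearson's r of -0.766 (permutation p = 0.0105) did not pass after adjustment (0.166) and was -0.679 without the 2 arrays farthest from the median. Array 7, with the most Bcl2, had the lowest mitotic mean, 9.29, and array 2, with 9.04 for Bcl2, the highest, 10.28. Over all 10 arrays Bcl2l1 gave a similar Pearson's r with the mitotic genes, -0.761 (permutation p = 0.0111, adjusted 0.166), and a rho of -0.612. Without the 2 arrays farthest from the median mitotic level, that r was only -0.331. The 2 arrays with the highest platelet means, 7 and 6, had the lowest mitotic means (9.29 and 9.41). Pax5 levels gave no relation below 0.05 with Bcl2 (r = -0.162, permutation p = 0.66, n = 10) or Bcl2l1 (r = -0.164, permutation p = 0.667, n = 10). Without the 2 arrays farthest from the median Pax5 level r was 0.377 and 0.349, so its sign was not settled. Of the 45 relations only Bcl2l1 with the platelet genes and Bcl2 with the mitotic genes were below 0.05 after adjustment, the latter by rho alone.

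Genes that varied most like a member were listed from the deviations of each array from its group mean, over 24 arrays and as a description. For Bcl2 they were Cd27 (r = 0.841), Gimap5 (0.819) and Slc25a12 (0.816). Cd27, a TNF receptor family member of lymphocytes, ran from 6.06 to 10.09 in leukemic Pax5+/- mice. For Bcl2l1 the nearest were Abcb9 (0.79), Clcn2 (0.787) and Atp1b2 (0.758), and for Mcl1 Gpr107 (0.815), Itch (0.812) and Sat1 (0.79). Bcl2l11 varied with Trib1 (0.84), Per1 (0.839) and Hexim1 (0.831). Leukemic Pax5+/- array 3 lay far above its group for Bcl2l11 (9.42, group mean 7.6) and weighs heavily on these values. They were not taken again without it.

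Other genes of the BCL2 family also went both ways. Of 11 tested, 3 were called higher and 4 lower in Pax5+/- (median -0.10), and 2 higher and 3 lower in wild type (median 0.09). Over all genes tested 27.8% were called higher and 35.1% lower in Pax5+/-, and 18.7% and 20.4% in wild type. The counts of the lists that follow stand beside the same shares. Bmf, a BH3-only gene, was lower by 2.65-fold in Pax5+/- (-1.41 ± 0.24, SE; limma adjusted p = 2.84e-05) and by 3.61-fold in wild type (-1.85 ± 0.37, SE; limma adjusted p = 0.000431). Hrk, another BH3-only gene, was 1.22-fold lower in Pax5+/- (limma adjusted p = 1.47e-05) and 1.18-fold lower in wild type (0.00856). Higher were Bok, an effector relative (1.63-fold and 1.53-fold in the 2 genotypes), and the survival gene Bcl2l2, which encodes Bcl-w (1.37-fold and 1.33-fold), all called. Bnip3, a mitophagy gene with a BH3-like stretch, was 1.35-fold lower in Pax5+/- (limma adjusted p = 0.00147) and 1.51-fold lower in wild type (0.00769). With arrays centred on the genes tested, the counts of higher and lower genes in Pax5+/- were 2 and 6 in this list, 2 and 10 of the caspase and apoptosome genes, 3 and 10 of the genes that act on the family and 1 and 7 of the p53 targets described next. In wild type they were 2 and 5 here, 2 and 6 of the caspase and apoptosome genes and 1 and 5 of the p53 targets. Bcl2a1c, of the A1 group of genes, did not pass the dim level in 7 of the 10 Pax5+/- leukemias, while its highest value there was 8.61.

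Downstream of the mitochondria, 4 of 14 caspase and apoptosome genes were higher and 5 lower in Pax5+/- (median -0.15), and 3 higher and 4 lower in wild type (median -0.12). Htra2, a protease released from mitochondria, was 2.23-fold higher in Pax5+/- (limma adjusted p = 2.08e-09) and 2.17-fold higher in wild type (8.23e-06). Birc3, an inhibitor of apoptosis and target of NF-kB, was 2.69-fold and 3.22-fold lower. The initiator caspase gene Casp9 (1.46-fold and 1.40-fold) and Dffa (1.32-fold and 1.35-fold), which encodes the inhibitor of the caspase-activated DNase, were lower in both genotypes. Cycs, the cytochrome c gene, was higher by 1.39-fold and 1.63-fold. All of these were called.

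Of 7 tested death receptor genes, 5 were higher and 1 lower in Pax5+/- (median 0.38), and 3 higher and 0 lower in wild type (median 0.13). With arrays centred on the genes tested the counts were 2 and 2 in Pax5+/- and 3 and 2 in wild type, so the balance of the list depended on scaling. Tnfrsf1a, the receptor for TNF, was 3.80-fold higher in Pax5+/- (limma adjusted p = 7.23e-09) and 2.68-fold higher in wild type (0.000353), and monocyte genes were higher beside it (8 of 11 and 4 of 11 called). Casp8, whose protein cuts Bid, was 1.35-fold and 1.40-fold higher. Tnfrsf10b, a receptor for TRAIL, was 1.30-fold higher in Pax5+/- (limma adjusted p = 0.0208) and 1.56-fold higher in wild type (0.0212). Cflar, an inhibitor of caspase-8, was 1.35-fold higher in Pax5+/- (limma adjusted p = 0.00244) and Tradd, an adaptor of the TNF receptor, 1.12-fold lower (0.00482). Their wild-type differences of 0.11 and -0.13 were not called.

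Genes that act on the family gave 4 higher and 9 lower of 18 in Pax5+/- (median -0.13) and 5 higher and 6 lower in wild type (median -0.16). Foxo1, a transcription factor that drives Bim and the recombinase genes in pre-B cells, was 4.26-fold lower in Pax5+/- (limma adjusted p = 5.84e-09) and 6.31-fold lower in wild type (6.09e-07). Vdac1, the mitochondrial channel, was 2.36-fold and 2.25-fold higher. Usp9x, which encodes a deubiquitinase of MCL1, was 1.33-fold higher in Pax5+/- (limma adjusted p = 1.22e-07), with a difference of 0.10 that was not called in wild type (0.275). Pim2, a kinase gene whose product phosphorylates BAD, was 2.99-fold lower in Pax5+/- (limma adjusted p = 3.41e-06) and 2.22-fold lower in wild type (0.0118). Akt1, whose product phosphorylates BAD too, was 1.24-fold lower in Pax5+/- (limma adjusted p = 2.72e-05) and 1.32-fold lower in wild type (0.00052). Fbxw7, part of a ligase for MCL1, was 1.15-fold lower in Pax5+/- (limma adjusted p = 0.00493) and 1.24-fold lower in wild type (0.00957). In wild type the balance of this list turned with scaling, with 2 higher and 9 lower when arrays were centred on the genes tested and 5 higher and 3 lower when they were centred on their median.

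Targets of p53 outside the family divided as well, with 2 higher and 5 lower of 14 in Pax5+/- (median 0.00) and 1 higher and 5 lower in wild type (median 0.09). The called falls were large. Btg2, an antiproliferative gene, was 8.78-fold lower in Pax5+/- (limma adjusted p = 4e-12) and 8.16-fold lower in wild type (4.72e-08). Rrm2b, a ribonucleotide reductase subunit gene, was 6.78-fold and 4.92-fold lower, and Mdm2, which encodes the ligase of p53, 1.95-fold and 1.87-fold lower. Plk2 was 5.01-fold lower in Pax5+/- (limma adjusted p = 1.62e-06) and 3.67-fold lower in wild type (0.00402). Ei24 was 1.43-fold higher in Pax5+/- (limma adjusted p = 1.06e-05) and 1.57-fold higher in wild type (0.000298). Beside them, Bbc3 and Pmaip1, the members described above as induced by p53, gave -0.07 and 0.24 in Pax5+/-. In these 5 lists the interaction called 0 genes, beside 0.185% of all genes. The genotype comparisons called 0 at either stage, beside 0.786% before leukemia and 0.16% in leukemia.

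**Figure D5:**
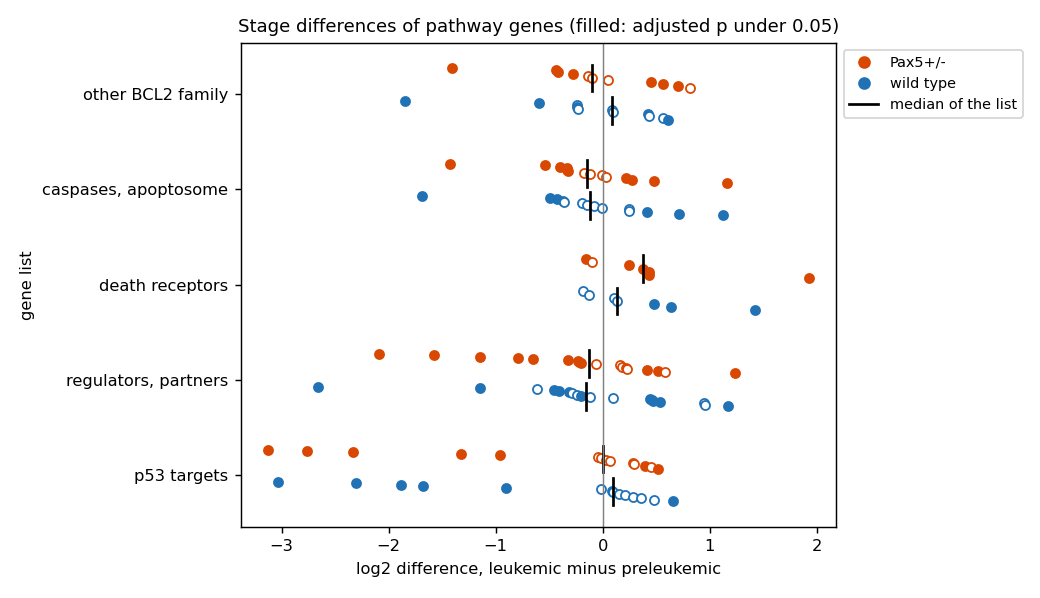
Log2 difference, leukemic minus preleukemic (horizontal axis), of each tested gene of 5 lists related to the BCL2 family (vertical axis) in Pax5+/- and wild type, with 1 point per gene, filled where the adjusted p was under 0.05, and a black line at the median of a list. Points lie on both sides of 0 in every list, and the p53 target list reaches farthest to the left, to -3.13 for Btg2.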

How the data were processed

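Messenger RNA of 24 mice was measured on 1-colour arrays. The authors deposited log2 signals for 35556 probe sets, made with RMA and oligo per the submitters' processing notes; the sources used here name no versions or filters. RMA compresses differences near background, and the number of arrays limits the precision. The platform table gives 21789 probe sets 1 symbol; 1621 with several and 12146 unnamed ones were left out. A gene was tested when it reached the 30th percentile of the array, the dim level, on at least 3 arrays. Means of the 4 groups were fitted with limma 3.58.1 (lmFit, contrasts.fit, eBayes; R 4.3.3) and tested two-sided, with 20 degrees of freedom from the arrays and 2.29 from the prior. Correlations used 100000 permutations (scipy 1.17.1). The fit was run on simulated data with normal noise, the same spread in all groups and few changed genes. Changes of 0.5 log2 were recovered in 68.5% (Pax5+/- stage), 44% (wild-type stage) and 34.5% (interaction) of changed genes. In the preleukemic and leukemic genotype comparisons the shares were 60.5% and 66.5%. The arrays themselves differ in spread between groups and in the share of genes changed, so these figures may not carry over. Named genes were the members, up to 4 called genes with the smallest p per pathway list and stage comparison, Pax5, up to 2 genes per cell marker list, and the 3 genes most like Bcl2, Bcl2l1, Mcl1 and Bcl2l11. Cycs and Bcl2a1c fall outside this rule and were chosen after their values were seen. The members and lists were chosen with earlier results of these data known. Alternatives covered scaling, filtering, array weights, the replicate block, a Y-linked covariate, each array left out, and, chosen after seeing the data, centring on the genes tested and leaving out the 2 arrays that stand apart. Promoter windows came from the RefSeq table of GRCm38.p6 and covered 9 members.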

Additional observations from a re-analysis of the deposited data

Results flagged for a closer look

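In 4 of the 27 combinations of a member and a group of 4 to 10 arrays, the highest or lowest array stood apart from the rest, its gap to the nearest array as a share of the group's range being above Dixon's 95% critical value; chance gives about 1 in 20. Bcl2l11, the Bim gene, was high on leukemic Pax5+/- array 3 (log2 signal 9.42; gap share 0.683, critical value 0.466 for 10 arrays). Bak1 was low on leukemic wild-type array 1 (9.46; 0.934, critical value 0.829 for 4 arrays). Bcl2l1 was low on preleukemic Pax5+/- array 3 (9.18; 0.578) and Bid on preleukemic Pax5+/- array 5 (7.04; 0.585), with a critical value of 0.568 for 7 arrays.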

How the results depend on the processing

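The stage differences of Bcl2, Bcl2l1, Mcl1 and Bid in Pax5+/- mice and of Bcl2l1 and Mcl1 in wild type kept their direction and call under every alternative run. The Bak1 rise in Pax5+/- turned to -0.04 with arrays centred on the genes tested. That scaling gave 2827 genes higher and 8930 lower in Pax5+/- (24% higher, against 44.3% as deposited) and 2214 and 5741 in wild type (27.8% against 47.8%); centring on the array median gave 59.1% and 60.8%, and repeated quantile normalization 54.3% and 55.3%. Bak1 in wild type was called in both of the latter (0.29 and 0.24). The counts of all genes called in the other comparisons were small and moved. The interaction called 29 genes, 17 with the replicate block, 64 without the 2 arrays that stand apart and 11 to 48 without each array in turn. The preleukemic genotype comparison called 123, 249 with only the groups compared, 60 with array weights, 56 with the block and 44 to 153 without each array. The leukemic one called 25, 1 with only the groups compared, 14 with a stricter filter, 2 with the block, 3 with the Y-linked covariate, 14 without the 2 arrays and 1 to 133 without each array (1 without leukemic wild-type array 2, 133 without leukemic wild-type array 3), with 0 to 1 members called. The cause of these moves was not tested. Without each array in turn, 4 to 6 members were called in the Pax5+/- stage comparison, 2 to 3 in the wild-type one, and 9203 to 9990 and 4263 to 7047 genes in all. Replicate numbers were not treated as pairs in the main fit. Of 17 same-numbered pairs 1 correlated above 0.1 in its deviations from the group means (range -0.363 to 0.138). Pairs with different numbers were not compared, so this check cannot decide whether the numbers carry a pairing. With the replicate block the Pax5+/- Bak1 difference was 0.16 and not called (limma adjusted p = 0.085), and the wild-type Bid difference was 0.62 and called (limma adjusted p = 0.0458). Bbc3, close to the dim level, is limited by signal over background.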
